A study of Homo sapiens with 6 samples.

Results

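Expression of 40 genes named as antiviral effectors was compared between 3 libraries labelled control siRNA and 3 libraries labelled GLCC1 siRNA. The genes were chosen by symbol, as members of the PARP, GBP, TRIM, SAMD9, APOL and DDX60 groups and other interferon-regulated effectors. All 40 were found among the 56638 genes in the files, and 39 of them had enough counts to be tested. The labels name SW480, a human colorectal cancer cell line, as the cells of every library, whereas the methods of the study name DLD-1, and which line was sequenced was not tested. Cells received either a nonspecific siRNA or an siRNA against lncRNA-AF339830, a long noncoding RNA that the study calls GLCC1, and were grown in RPMI-1640 with fetal bovine serum. The genotype label gives siRNA1 to every library, while the titles of a side are numbered 1 to 3, and whether these numbers mark replicates or different siRNA sequences is not stated. Sequencing libraries were made from total RNA with an Illumina TruSeq kit. The study addressed what knockdown of GLCC1 changes in these cells.

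The labels do not say whether the 3 libraries of a group came from separate cultures, so each p-value measures the spread between these libraries only. The library names, however, carry NC on those titled GLCC1 siRNA and AF123 on those titled control siRNA. Groups here follow the titles, and if the names mark the siRNA that was used, every sign below turns. The level of GLCC1 was not analysed here, so the titles were not checked against the targeted RNA. Between 11948790 and 19042516 counts per library fell on genes. GLCC1 siRNA replicate 2 was the shallowest and stood apart. Its counts differed from those of the other libraries of its group by a chi-square per degree of freedom of 18.1 and 19.0, against 3.28 between replicates 1 and 3 and at most 4.16 between control libraries. Results are therefore also given without it.

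Interferons bind their receptors and activate STAT and IRF transcription factors, which switch on interferon-stimulated genes through a DNA element called the ISRE. The products of these genes act at many steps of infection. Some tag or degrade viral RNA, some coat or trap viral particles, some sense foreign nucleic acid, and others promote the death of the infected cell. Epithelial cells, the cells of origin of colorectal cancer, can mount this response by themselves.

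Promoters were read for motif matches, because the ISRE is the element through which many of these genes are known to be switched on. RefSeq promoters on GRCh38.p14, each of 300 bases with 250 before the start of the gene, were matched by symbol for 31 of the 40 genes. The searched motifs were GAAANNGAAA for the ISRE, on both strands, and TTCNNNGAA for a STAT site, which reads the same on both strands. The ISRE letters were found in 22 of the 31 genes (71.0%), whereas they were found in 4.06% of the 11513 tested genes with a promoter and in 4.38% of all 27305 genes with one. The STAT letters were found in 9 of the 31 genes (29.0%), compared with 8.63% of tested genes and 9.38% of all genes. In EPSTI1 a match of each kind overlapped. The windows below show the ISRE match in capitals, on the strand of the gene. They are given for some of the genes that were called higher, not for those with the largest rises only. They are also given for 3 genes that hold the letters and did not pass the test (ISG20, TRIM14 and CD274).
DTX3L: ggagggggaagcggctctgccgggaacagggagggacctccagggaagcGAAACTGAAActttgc
DDX60: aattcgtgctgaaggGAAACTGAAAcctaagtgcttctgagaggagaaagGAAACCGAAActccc
DDX60L: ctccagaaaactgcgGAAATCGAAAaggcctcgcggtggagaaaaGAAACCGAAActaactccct
SAMD9: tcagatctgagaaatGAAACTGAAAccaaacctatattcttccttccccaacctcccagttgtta
RTP4: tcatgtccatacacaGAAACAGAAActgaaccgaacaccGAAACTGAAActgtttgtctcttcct
GBP1: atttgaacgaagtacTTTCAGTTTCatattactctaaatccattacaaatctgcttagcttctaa
GBP3: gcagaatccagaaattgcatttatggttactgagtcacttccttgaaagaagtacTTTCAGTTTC
ISG20: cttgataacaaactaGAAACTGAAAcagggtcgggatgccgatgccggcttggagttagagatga
TRIM14: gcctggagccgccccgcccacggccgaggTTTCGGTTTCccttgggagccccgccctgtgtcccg
CD274: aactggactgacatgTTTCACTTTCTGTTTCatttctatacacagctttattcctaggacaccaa

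On GRCh38.p14 these windows were chr3:122564283-122564347 (plus strand) for DTX3L, chr4:168318791-168318855 (minus) for DDX60, chr4:168480523-168480587 (minus) for DDX60L and chr7:93118066-93118130 (minus) for SAMD9. They were chr3:187368328-187368392 (plus) for RTP4, chr1:89065286-89065350 (minus) for GBP1 and chr1:89022855-89022919 (minus) for GBP3. Those of the genes that did not pass the test were chr15:88638932-88638996 (plus) for ISG20, chr9:98119213-98119277 (minus) for TRIM14 and chr9:5450319-5450383 (plus) for CD274. DTX3L and PARP9 are neighbours on opposite strands, and the promoters of both hold the same match, at chr3:122564332-122564341. GBP1 and GBP3 hold the same 10 letters in the same short surrounding run. DDX60, DDX60L and RTP4 each hold 2 matches, while in CD274 a pair of matches overlaps.

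**Figure D1:**
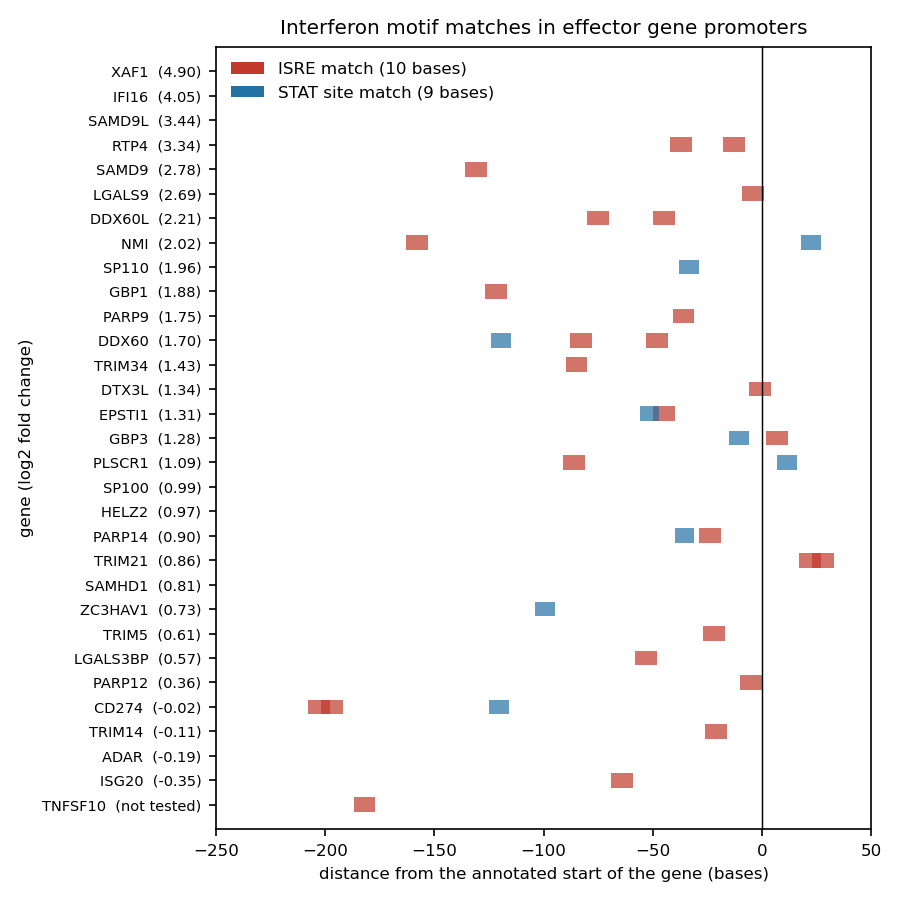
Motif matches in the promoters of 31 antiviral effector genes, ordered by log2 fold change (GLCC1 siRNA over control siRNA, in brackets). The x axis is the distance from the annotated start of the gene in bases, red blocks are ISRE matches and blue blocks STAT site matches; XAF1, IFI16 and SAMD9L, at the top, hold neither.

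Expression of most of these genes was higher in the libraries labelled GLCC1 siRNA. Of the 39 tested genes, 32 were higher and 0 were lower at an adjusted p under 0.05 (edgeR quasi-likelihood test, Benjamini-Hochberg over 23074 genes). Among all tested genes 14.9% were called higher and 16.7% lower. At an unadjusted p under 0.05, 34 genes passed, and 2 of these, ADAR and ISG20, were lower. A rise of at least 2-fold was called for 23 genes, against 4.42% of all tested genes. Of these, 8 rose at least 4-fold (XAF1, IFI16, SAMD9L, RTP4, SAMD9, LGALS9, DDX60L and NMI), and 6 of the 8 were under 5 CPM (counts scaled to library size by TMM) in control libraries. XAF1, IFI16, SAMD9L, RTP4 and LGALS9 had control means under 1 CPM. The 7 tested genes that did not pass were TRIM14, TRIM34, ADAR, ISG20, PML, LAMP3 and CD274.

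The median log2 fold change of the 39 genes was 1.31, with a range from -0.35 to 4.90, while the median of all tested genes was 0.03. Scaling by library totals alone moved the latter to 0.15 and the former to 1.43. The median change of the 39 tested genes relative to the control mean, as log2 of CPM + 0.5, which understates the change of genes under 1 CPM, was 1.19, 0.89 and 0.92 in GLCC1 siRNA replicates 1 to 3. In the control libraries it lay between -0.06 and 0.08. All 3 GLCC1 siRNA libraries were above all 3 control libraries for 32 of the 40 genes, among them the untested TNFSF10, against 22.3% of tested genes, and below them for 2 genes (24.0% of tested genes). Replicate 1 was the highest of the GLCC1 siRNA libraries for 36 genes, and how often this held over all tested genes was not counted. Without replicate 2, 33 of 38 tested genes were called higher, where 21.6% of 22470 genes were called higher, 1 gene (ADAR) was lower, and the median was 1.26. Bulk RNA cannot tell a rise in every cell from a larger rise in part of the cells.

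**Figure D2:**
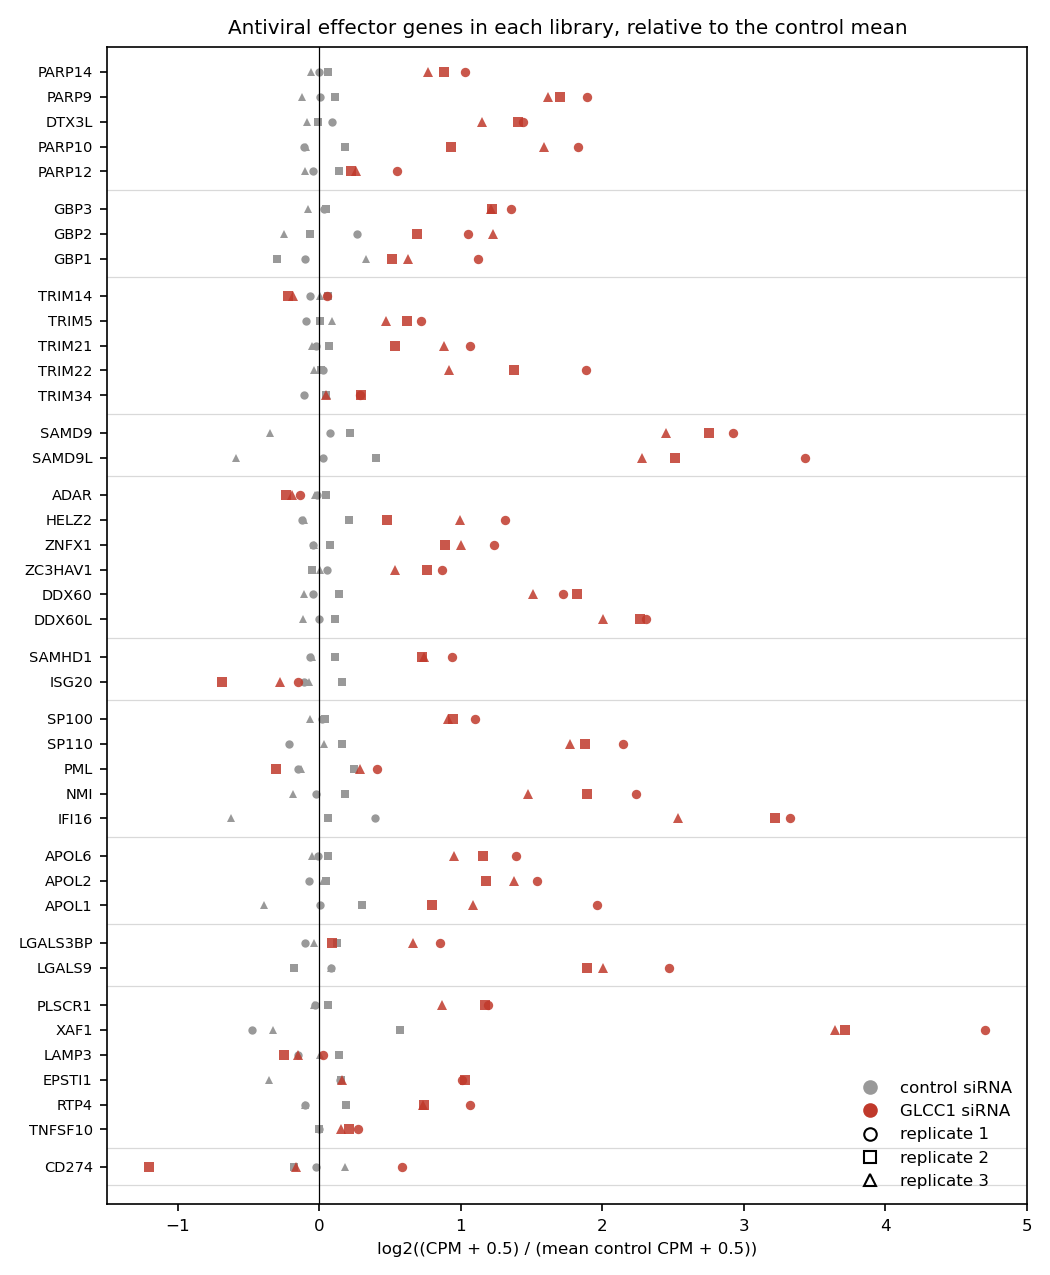
Each antiviral effector gene in each library, as log2 of CPM + 0.5 over the control mean (x axis), grouped by family, with control libraries in grey and GLCC1 siRNA libraries in red, and the replicate given by the marker. The red points of XAF1, SAMD9L, IFI16 and SAMD9 lie farthest to the right, whereas those of TRIM14, ADAR, ISG20, PML, LAMP3 and CD274 lie near or across the grey points.

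All 5 genes of the PARP group and its partner DTX3L rose. PARP9 and DTX3L form a complex that joins an ADP-ribosyltransferase family member with a ubiquitin ligase. PARP9 had 103, 110.2 and 93.8 CPM in control libraries and 381, 333 and 314 CPM in GLCC1 siRNA libraries. Its mean went from 102 ± 8.2 to 343 ± 34 CPM (SD, n = 3), which was 3.35-fold (log2 fold change 1.75, SE 0.10, edgeR adjusted p = 5.5e-08). DTX3L had 115, 108 and 102 CPM in control libraries and 296, 289 and 241 CPM in GLCC1 siRNA libraries. It rose 2.54-fold (log2 1.34, SE 0.10, edgeR adjusted p = 3.6e-07). For both genes the lowest GLCC1 siRNA library was more than 2-fold above the highest control library.

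PARP10, PARP12 and PARP14 are mono-ADP-ribosyltransferases, and PARP12 also carries RNA-binding zinc fingers. PARP10 had 50.2, 61.3 and 50.7 CPM in control libraries and 193, 104 and 164 CPM in GLCC1 siRNA libraries, with replicate 2 far below the others. It rose 2.85-fold (log2 1.51, SE 0.18, edgeR adjusted p = 2.5e-05), and without replicate 2 the log2 fold change was 1.73. PARP14 rose 1.86-fold from 241 ± 9.9 to 450 ± 41 CPM (SD, n = 3, edgeR adjusted p = 4.3e-06). PARP12 had the smallest rise of the 32 called genes. It had 88.4, 100.3 and 84.97 CPM in control libraries and 134, 107 and 109 CPM in GLCC1 siRNA libraries (log2 0.36, SE 0.10, edgeR adjusted p = 0.019). This call was lost when control replicate 1, control replicate 3 or GLCC1 siRNA replicate 1 was left out (adjusted p = 0.085, 0.11 and 0.094).

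All 3 listed genes for guanylate-binding proteins rose, which are large GTPases that coat pathogens and the compartments that hold them. GBP3 had 28.5, 28.9 and 26.3 CPM in control libraries and 72.1, 65.6 and 65.5 CPM in GLCC1 siRNA libraries, a rise of 2.43-fold (log2 1.28, SE 0.09, edgeR adjusted p = 4.1e-07). GBP2 rose as well, from 0.823, 0.551 and 0.422 CPM to 1.77, 1.27 and 2.07 CPM (log2 1.54, SE 0.34, edgeR adjusted p = 0.0030). GBP1 rested on 9 counts over the control libraries and 35 counts over the GLCC1 siRNA libraries. The ratio of these sums after scaling was 3.87, with a 95% counting interval from 1.82 to 9.15, and the edgeR adjusted p was 0.029. The call of GBP1 was lost in DESeq2 (adjusted p = 0.060) and when control replicate 1, control replicate 2 or GLCC1 siRNA replicate 1 was left out.

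Of the 5 TRIM genes, whose products are ubiquitin ligases or related proteins that restrict viruses, 3 rose. TRIM22 went from 1.85, 1.82 and 1.75 CPM to 8.03, 5.49 and 3.86 CPM (log2 1.69, SE 0.26, edgeR adjusted p = 0.00027). TRIM21, the cytosolic receptor for antibodies, rose 1.82-fold, from 27.2, 29.0 and 26.7 CPM to 58.3, 40.3 and 51.4 CPM (edgeR adjusted p = 0.00015). TRIM5, which binds retroviral capsids, rose 1.53-fold (log2 0.61, SE 0.10, edgeR adjusted p = 0.00030). The values of these 3 genes did not overlap between groups. TRIM14, an adaptor in RNA sensing, had 88.6, 96.9 and 93.1 CPM in control libraries and 96.5, 79.6 and 81.7 CPM in GLCC1 siRNA libraries. The ranges overlapped, and the log2 fold change was -0.11 (SE 0.09, edgeR adjusted p = 0.41). TRIM34 had only 2 control and 6 GLCC1 siRNA counts, and 83.6% of its exon bases are shared with the readthrough gene TRIM6-TRIM34, which had 0 counts. In the union mode named in the methods, reads on shared exons go to no gene. The low counts therefore do not show that either gene was silent.

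SAMD9 and SAMD9L are paralogous cytoplasmic proteins known for restricting poxviruses, encoded side by side on chromosome 7 (hg19 chr7:92728826-92747336 and chr7:92759369-92777698). SAMD9 had 10.4, 11.5 and 7.59 CPM in control libraries and 77.7, 69.0 and 55.8 CPM in GLCC1 siRNA libraries. It rose 6.87-fold (log2 2.78, SE 0.16, edgeR adjusted p = 6.9e-08). SAMD9L had 0.823, 1.21 and 0.361 CPM in control libraries and 13.5, 6.92 and 5.82 CPM in GLCC1 siRNA libraries, a rise of 10.9-fold (log2 3.44, SE 0.39, edgeR adjusted p = 2.0e-05). For both genes the lowest GLCC1 siRNA library was several times above the highest control library. SAMD9 holds an ISRE match in its promoter, while SAMD9L holds neither motif.

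DDX60 and DDX60L are neighbouring paralogs of the helicase class that act around viral RNA. DDX60L had 35.6, 38.4 and 32.8 CPM in control libraries and 178, 173 and 144 CPM in GLCC1 siRNA libraries. It rose 4.64-fold (log2 2.21, SE 0.11) with the lowest edgeR adjusted p of the 39 genes, 1.9e-08. DDX60 had 51.4, 58.6 and 49.1 CPM in control libraries and 176, 189 and 152 CPM in GLCC1 siRNA libraries, a rise of 3.25-fold (log2 1.70, SE 0.10, edgeR adjusted p = 1.1e-07). Values of both genes varied little within a group.

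Of the 4 other RNA-directed effectors, ZNFX1, ZC3HAV1 and HELZ2 rose and ADAR did not. ZNFX1, a helicase that senses double-stranded RNA, had 110.2, 120.2 and 111 CPM in control libraries and 268, 211 and 229 CPM in GLCC1 siRNA libraries (2.07-fold, edgeR adjusted p = 3.3e-06). ZC3HAV1, the zinc-finger antiviral protein that binds CpG-rich viral RNA, rose 1.66-fold (log2 0.73, SE 0.09, edgeR adjusted p = 5.9e-05). HELZ2, a helicase and nuclear receptor coactivator, had 146, 183 and 147 CPM in control libraries and 396, 221 and 317 CPM in GLCC1 siRNA libraries. Here too replicate 2 was the lowest, and the log2 fold change of 0.97 (SE 0.16, edgeR adjusted p = 0.00048) became 1.17 without it. ADAR, which edits adenosine to inosine in double-stranded RNA, had 653, 685 and 647 CPM in control libraries and 603, 562 and 577 CPM in GLCC1 siRNA libraries. The groups did not overlap, but the difference was small (log2 fold change -0.19, SE 0.07) and missed the threshold (edgeR adjusted p = 0.067). Without replicate 2 it was -0.16 with an adjusted p of 0.010.

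SAMHD1 and ISG20 both act on nucleotides or nucleic acids. SAMHD1, which degrades deoxynucleotides and so starves reverse transcription, rose 1.75-fold from 61.1 to 69.2 CPM in control libraries to 106.3 to 123.3 CPM in GLCC1 siRNA libraries (edgeR adjusted p = 2.3e-05). ISG20, an exonuclease for single-stranded RNA, had 19.5, 23.6 and 19.99 CPM in control libraries and 18.9, 12.9 and 17.3 CPM in GLCC1 siRNA libraries. All 3 of the latter were below the control libraries, with replicate 2 the lowest, and the log2 fold change was -0.35 (SE 0.14, edgeR adjusted p = 0.072). Without replicate 2 it was -0.22.

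Of the 5 genes SP100, PML, SP110, IFI16 and NMI, 4 rose. SP100, a part of PML nuclear bodies, rose 1.99-fold, from 70.2 to 75.6 CPM in control libraries to 138 to 158 CPM in GLCC1 siRNA libraries (edgeR adjusted p = 2.1e-06). PML, the scaffold of these bodies, had 47.7, 62.7 and 48.4 CPM in control libraries and 70.3, 42.6 and 64.8 CPM in GLCC1 siRNA libraries. Its groups overlapped, because replicate 2 was below every control library, and the log2 fold change was 0.17 (SE 0.16, edgeR adjusted p = 0.47). Without replicate 2, PML was higher, with a log2 fold change of 0.35 and an edgeR adjusted p of 0.019.

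SP110, a relative of SP100, had 21.9, 28.5 and 26.1 CPM in control libraries and 115, 95.05 and 88.2 CPM in GLCC1 siRNA libraries. It rose 3.89-fold (log2 1.96, SE 0.12, edgeR adjusted p = 1.5e-07). Each GLCC1 siRNA library was more than 2-fold above each control library. IFI16, a nuclear sensor of foreign DNA, had 0.754, 0.496 and 0.1204 CPM in control libraries and 9.12, 8.43 and 5.03 CPM in GLCC1 siRNA libraries. This was a rise of 16.5-fold (log2 4.05, SE 0.37, edgeR adjusted p = 3.1e-06) from a level close to the detection limit, as 1 count was worth 0.0525 to 0.0837 CPM before TMM scaling. NMI, which binds STAT proteins, rose 4.07-fold, from 3.91, 4.57 and 3.43 CPM to 20.6, 16.1 and 11.9 CPM (edgeR adjusted p = 6.1e-06).

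Apolipoproteins L are lipid-binding proteins of the cytoplasm, apart from APOL1, which is also secreted and lyses trypanosomes. The 3 listed members, all on chromosome 22, rose. APOL2 rose 2.63-fold from 21.0 to 22.8 CPM in control libraries to 50.7 to 64.96 CPM in GLCC1 siRNA libraries (edgeR adjusted p = 7.5e-07). APOL6 rose 2.28-fold (log2 1.19, SE 0.11, edgeR adjusted p = 4.7e-06). APOL1 had fewer counts, with 1.03, 1.38 and 0.662 CPM in control libraries and 5.42, 2.15 and 2.74 CPM in GLCC1 siRNA libraries. It rose 3.41-fold (log2 1.77, SE 0.37, edgeR adjusted p = 0.0022), and by a log2 of 1.99 without replicate 2.

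Galectin-9 and the galectin-3 binding protein rose. LGALS9, a sugar-binding lectin that modulates T cells, went from 0.960, 0.716 and 0.964 CPM to 7.14, 4.61 and 5.03 CPM, a rise of 6.44-fold (log2 2.69, SE 0.25, edgeR adjusted p = 3.7e-06). Its near-identical copies LGALS9B and LGALS9C had 0 counts in all libraries. Whether reads that match more than 1 of these genes were dropped was not tested, so the 0 does not show that the copies were silent. LGALS3BP, a secreted glycoprotein, had 327, 382 and 342 CPM in control libraries and 635, 373 and 555 CPM in GLCC1 siRNA libraries. Replicate 2 lay inside the control range, so the groups overlapped although the test was passed (log2 0.57, SE 0.15, edgeR adjusted p = 0.0091). Without replicate 2 the log2 fold change was 0.77 with an edgeR adjusted p of 1.2e-12.

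The largest rise of the 39 genes was that of XAF1, which antagonises the apoptosis inhibitor XIAP. It had 0.274, 1.10 and 0.361 CPM in control libraries and 27.7, 13.7 and 13.0 CPM in GLCC1 siRNA libraries, which was 29.9-fold (log2 4.90, SE 0.41, edgeR adjusted p = 1.5e-06). Each GLCC1 siRNA library was over 10 CPM above each control library, and the log2 fold change was 5.06 without replicate 2. The control libraries held only 4, 20 and 6 counts of XAF1. With 1 library left out, its log2 fold change ranged from 4.45 to 5.80. In GENCODE 44, 38.3% of the exon bases of XAF1 overlap those of another gene, PRAL. That annotation is not the Ensembl version used for counting, and PRAL is not among the gene symbols that were counted. Whether reads there were counted for XAF1 was not tested. XAF1 holds neither motif in its promoters. TNFSF10, the death ligand TRAIL, was not tested, since it had 0 counts in all control libraries and 2, 1 and 1 counts in the GLCC1 siRNA libraries. These 4 counts are close to the 3 counts that an observed 0 allows for a group.

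PLSCR1, a phospholipid scramblase, rose 2.13-fold from 75.9 to 81.4 CPM in control libraries to 143 to 178 CPM in GLCC1 siRNA libraries (edgeR adjusted p = 2.7e-06). RTP4, a chaperone of membrane receptors, had 2 counts over the control libraries and 24 over the GLCC1 siRNA libraries. The ratio of these sums after scaling was 11.9, with a wide 95% counting interval from 2.96 to 104, and the edgeR adjusted p was 0.0099. EPSTI1 was near the detection limit too, with 0.549, 0.551 and 0.241 CPM in control libraries and 1.41, 1.43 and 0.559 CPM in GLCC1 siRNA libraries. It passed narrowly (log2 1.31, SE 0.46, edgeR adjusted p = 0.043), and the call was lost in DESeq2 and when any control library or GLCC1 siRNA replicate 1 was left out. LAMP3, a lysosomal membrane protein, had overlapping values of 14.3 to 17.6 CPM in control libraries and 13.4 to 16.3 CPM in GLCC1 siRNA libraries (log2 fold change -0.12, SE 0.12, edgeR adjusted p = 0.49).

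CD274 encodes PD-L1, the ligand that inhibits T cells through PD-1. It had 25, 27 and 34 counts in control libraries and 55, 6 and 27 counts in GLCC1 siRNA libraries. GLCC1 siRNA replicate 1 was above, and replicate 2 below, all control libraries. The log2 fold change was -0.02 with an SE of 0.41 (edgeR adjusted p = 0.98), so a change of moderate size was not detectable for this gene. Without replicate 2 it was 0.34 with an edgeR adjusted p of 0.30.

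The ISRE letters were found both in genes that rose and in genes that did not. Of all 31 genes with a promoter, 25 were called higher, against 14.9% of all tested genes. Of the 22 genes with a match, 17 were called higher and 5 were not, these being TRIM14, TRIM34, ISG20, CD274 and the untested TNFSF10. Of the 9 genes with a promoter but no match, 8 were called higher, namely HELZ2, IFI16, SAMD9L, SAMHD1, SP100, SP110, XAF1 and ZC3HAV1. These included 3 of the 8 genes that rose at least 4-fold. The search covered 300 bases and these letters only, so a more distant or a diverged element was not looked for.

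Per kilobase of exon, LGALS3BP was the most abundant of the 40 genes in control libraries, at 102 RPKM (CPM per kilobase of all annotated exon bases), followed by ADAR at 54.1 RPKM. PARP14, DTX3L, PLSCR1, TRIM14 and PARP12 followed, between 16.6 and 23.5 RPKM. In the GLCC1 siRNA libraries LGALS3BP stood at 152 RPKM, DTX3L at 47.8 RPKM and ADAR at 47.4 RPKM. The order of genes depends on the length used. ADAR has 12242 annotated exon bases but a canonical transcript of 6610 bases, while DTX3L has 5768 bases by either measure. Levels per canonical transcript were not computed. PARP9 went from 11.4 to 38.3 RPKM. The lowest tested genes in control libraries were TRIM34, RTP4 and GBP1, at 0.0144, 0.0245 and 0.0302 RPKM.

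Within the GLCC1 siRNA group, several of the genes that were low in replicate 2 were GC-rich. The difference between replicate 2 and the mean of replicates 1 and 3, as log2 of CPM + 0.5, was -0.78 for PARP10 (GC content 66.8%), -0.68 for HELZ2 (66.3%), -0.67 for LGALS3BP (61.2%) and -0.66 for PML (58.2%). It was 0.21 for DDX60 (38.9%) and 0.29 for IFI16. CD274, at -1.41, was low in replicate 2 with a GC content of only 40.7%. Over the 35 genes with at least 1 CPM, Pearson's r with the GC content of the transcript was -0.55 and Spearman's rho -0.64. The genes share the same 3 libraries and are not independent. Over all 12349 genes at that level the values were -0.71 and -0.75. The part of GC content in the differences between the groups was not tested. Over the same 35 genes, Pearson's r between GC content and the log2 fold change was -0.33 and Spearman's rho -0.46, and over all genes they were -0.15 and -0.16.

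**Figure D3:**
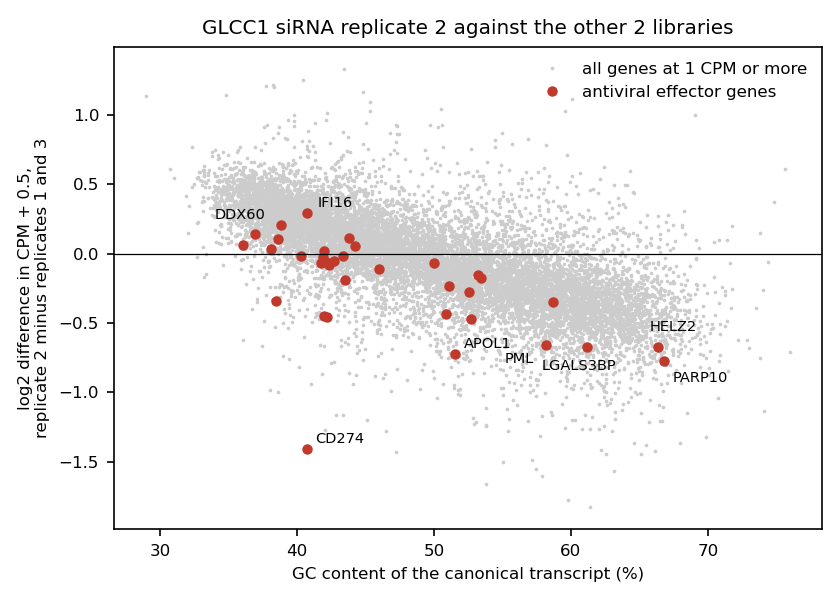
GC content of the canonical transcript in percent (x axis) against the log2 difference of GLCC1 siRNA replicate 2 from the mean of replicates 1 and 3 (y axis), for 35 antiviral effector genes in red and all 12349 genes at 1 CPM or more in grey. Both clouds fall from left to right, and CD274 lies far below at -1.41.

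Several of these genes are neighbours in the genome, and pairs within 300 kb of each other could be compared inside each library, where depth cancels. Ratios were taken of CPM without a pseudocount, for the 7 pairs in which each gene had a mean of at least 1 CPM in both groups. Pairs with GBP1, GBP2, TRIM34 or SAMD9L were left out, since these genes had a mean under 1 CPM in control libraries. The log2 ratios did not overlap between the groups for 6 of the 7 pairs, but this was common, as it was found for 61.9% of 46929 pairs of genes within the same distance. For PARP9 over DTX3L, which lie head to head (hg19 chr3:122246771-122283424 and chr3:122283185-122294050), the log2 ratio was -0.17, 0.03 and -0.13 in control libraries and 0.36, 0.21 and 0.38 in GLCC1 siRNA libraries. The mean ratio was thus higher by 0.41 in the GLCC1 siRNA libraries. The promoters of this pair hold the same ISRE match. The log2 ratios of PARP9 and of DTX3L over their neighbour PARP14 were higher by 0.85 and 0.44.

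For DDX60 over DDX60L (hg19 chr4:169137442-169240034 and chr4:169277886-169458937) the log2 ratio was 0.53, 0.61 and 0.58 in control libraries and -0.01, 0.13 and 0.08 in GLCC1 siRNA libraries, a difference of -0.51. The difference was -0.97 for SP100 over SP110 and -1.01 for TRIM5 over TRIM22. Each of these 6 differences had an exact permutation p of 0.1 (two-sided), the smallest that 3 libraries against 3 can give, and 0.117 after Benjamini-Hochberg adjustment over the 7 pairs, so the design could not reach significance. For APOL1 over APOL2 the groups overlapped, and the difference was 0.31 (exact permutation p = 0.6). APOL1 had about 1 CPM in control libraries, and with 0.5 CPM added to each value the difference turned to -0.06.

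**Figure D4:**
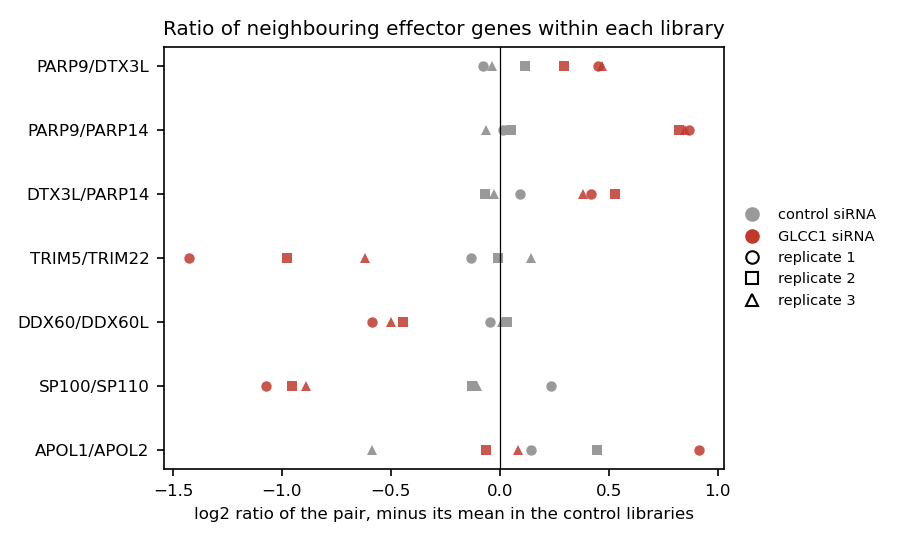
Log2 ratio of the CPM of 7 neighbouring gene pairs in each library, minus the mean of the pair in the control libraries (x axis), with control libraries in grey and GLCC1 siRNA libraries in red. Red and grey points are separate for 6 pairs and mixed for APOL1/APOL2.

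Other genes of the interferon pathway and relatives of the effector genes were counted in the same fit. Of 36 core interferon-stimulated genes, 34 were higher and 0 lower (0 also at an unadjusted p under 0.05), 28 of them at least 2-fold, with a median log2 fold change of 1.73. IFI44L had the largest rise, from 0 to 0.361 CPM in control libraries to 17.6 to 38.1 CPM in GLCC1 siRNA libraries (log2 6.68, SE 0.45, edgeR adjusted p = 2.6e-07). It was followed by IFI44 (log2 4.26) and RSAD2, the antiviral enzyme viperin (log2 3.803). The 2 genes that did not pass, named after their values were seen, were IRF9, a subunit of the interferon-activated transcription factor, and TAP1, a peptide transporter, with log2 fold changes of 0.31 and 0.02 (edgeR adjusted p = 0.10 and 0.94).

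Of 49 tested family relatives that are not in the list of effector genes, 15 were higher and 11 lower, with a median of 0.08. Among all tested genes 14.9% were called higher and 16.7% lower. At least 2-fold rises were found for 6 of the relatives, against 4.42% of all tested genes. Falls of at least 2-fold were found for 2 of them, against 777 of the 23074 tested genes. GBP4 (log2 2.72) and SP140 (log2 1.78), both under 1 CPM and named after their values were seen, were among those that rose. The largest rises at 1 CPM or more were those of SP140L, a relative of SP100 (log2 1.71, SE 0.15), PLSCR4, a scramblase (log2 1.64, SE 0.15) and APOL3 (log2 1.46, SE 0.32), with edgeR adjusted p-values of 2.4e-06, 3.6e-06 and 0.0030. The largest falls were those of LGALS1, galectin-1 (log2 -1.48, SE 0.14), LGALS3, galectin-3 (log2 -1.08, SE 0.08) and DTX1, a Notch regulator (log2 -0.85, SE 0.23), with edgeR adjusted p-values of 3.2e-06, 6.0e-07 and 0.011. Other galectins, named after their values were seen, moved either way, as LGALS8 rose (log2 0.46, edgeR adjusted p = 0.00082) and LGALS4 fell (log2 -0.66, edgeR adjusted p = 0.0012). In the promoters of the relatives the ISRE letters were found in 3 of 40 (7.5%), and in those of the core genes in 19 of 26 (73.1%).

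Markers of cell types were read beside these results. Of 10 markers of colon epithelium, 6 were lower and 0 higher, against 16.7% and 14.9% of all tested genes. The largest falls were those of KRT18 (log2 fold change -1.82) and KRT8 (-1.61), named after their values were seen. The 4 that did not pass were KRT20 (-0.92), CDX2 (-0.24), TFF3 (-0.19) and VIL1 (0.21). EPCAM was at 313 to 329 CPM in control libraries and 216 to 305 CPM in GLCC1 siRNA libraries, and KRT20 was under 1 CPM. Of 10 leukocyte markers, 9 were under 1 CPM, PTPRC was at 0 in every library, and the summed level was 4.11 to 5.84 CPM in control libraries and 4.37 to 7.77 CPM in GLCC1 siRNA libraries. Of 10 fibroblast and endothelial markers, 8 were under 1 CPM and 6 at 0 in every library, and the summed level was 16.6 to 20.8 CPM in control libraries and 11.1 to 14.7 CPM in GLCC1 siRNA libraries. Most of this level was COL1A1, with a mean of 13.4 CPM in control and 7.38 CPM in GLCC1 siRNA libraries. It was called lower (log2 fold change -0.86, edgeR adjusted p = 0.00029), as 1 of the 3 tested markers of this list. Reads outside annotated exons made up 11.2% to 11.5% in control libraries and 12.5% to 14.2% in GLCC1 siRNA libraries. Reads on exons of more than 1 gene, which were not counted either, made up 8.85% to 8.89% and 8.19% to 8.76%. The part of these shares in the results was not tested.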

How the data were processed

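The files deposited by the authors hold a count per gene symbol for each library, not normalized, made per the labels with TopHat2 2.0.11 on hg19 and HTSeq. The methods of the study name union mode, in which reads on overlapping exons go to no gene, and the strand setting is not given in the sources used here. The effector genes and the other gene lists were chosen with earlier results of these data known. Genes with under 5 counts summed in both conditions were removed, which left 23074 genes. Counts were scaled by TMM and compared with the robust quasi-likelihood test of edgeR 4.0.16 in R 4.3.3, two-sided, with the 3 libraries of each title as a group and Benjamini-Hochberg adjustment over all tested genes. The standard error is the size of the log2 fold change divided by the square root of F. Values are TMM-scaled CPM, and log2 levels have a pseudocount of 0.5 CPM, while ratios of neighbouring genes have none, a choice made after seeing the data. All 40 effector genes were named, as were the 3 largest called rises and falls of each further list at 1 CPM or more. Gene positions, exon bases and GC content came from GENCODE 44 on hg19. Counting intervals are exact, at 95%, and cover counting error only. Precision fell with depth, and 4 tested effector genes had a mean under 1 CPM. The procedure was tested on simulated data. DESeq2 1.42.0, other scalings and filters, the replicate number as a block and leaving out each library were alternatives.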

Additional observations from a re-analysis of the deposited data

How the results depend on the processing

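The number of effector genes called higher was 32 with DESeq2 size factors, library totals, a filter of 1 count or the replicate block, 29 in the DESeq2 test, 25 with a filter of 10 counts in every library, which tests fewer genes, and 29 to 33 with 1 library left out. Of the same genes, 0 were lower except for 1 (ISG20) with the filter of 1 count, and 0 to 1 with 1 library left out: ISG20 without GLCC1 siRNA replicate 1 (-0.47, edgeR adjusted p = 0.038) and ADAR without replicate 2. The median log2 fold change was 1.16 to 1.39 with 1 library left out and 1.11 with the filter of 10 counts. Library totals alone gave 22 family relatives higher and 7 lower, against 15 and 11, and with 1 library left out 12 to 21 were higher and 8 to 13 lower. Library totals also turned the uncalled TRIM14 (0.012), LAMP3 (0.00032) and CD274 (0.099). With 1 library left out, CD274 ranged from -0.71 to 0.34. Alternatives for the neighbouring pairs were added after seeing the data, and a pseudocount of 0.5 CPM turned APOL1 over APOL2 (-0.056). No cause of these shifts was tested.

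Whether the replicate numbers pair the libraries is not stated. Deviations of same-numbered libraries from their group means correlated at -0.16, -0.29 and -0.01 over 14875 genes. Libraries with different numbers were not compared, and GLCC1 siRNA replicate 2 stood apart, so these values cannot decide whether the libraries were paired. The fit with the replicate block called 32 effector genes higher, 23 of them at least 2-fold. DESeq2 gave no adjusted p for RTP4, and TRIM34 was not tested without GLCC1 siRNA replicate 2. GBP1 and EPSTI1, both under 1 CPM, lost their calls in the DESeq2 test and when any of 3 or of 4 libraries, respectively, was left out. Comparing the proteins of related effectors was not run.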
